A study of Mus musculus with 8 samples.

Results

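The mitochondrial protein import genes of the mouse cochlea were followed in *Opa1*+/- and WT mice. The genes were chosen by symbol alone, as the entries named Tomm or Timm followed by a number, with pseudogene symbols left out. This gave 25 genes of 47628 named entries, of which 11 carried a Tomm symbol and 14 a Timm symbol. Most Tomm genes encode the outer membrane machinery, with the cytosolic *Tomm34* and the antisense RNA *Tomm6os* among them, and the Timm genes encode proteins of the intermembrane space and inner membrane. In total, 23 of them (10 Tomm and 13 Timm) had enough counts to be tested among 19366 genes. *Tomm20l*, a relative of *Tomm20*, and *Timm8a2*, a relative of *Timm8a1*, were not tested, since their counts were between 0 and 1 and between 0 and 3 per mouse.

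RNA seq of total RNA was performed on untreated cochleae of 4 WT mice, labelled WT_4, WT_5, WT_6 and WT_8, and of 4 *Opa1*+/- mice, labelled Het_2, Het_7, Het_484 and Het_491. The *Opa1*+/- mice were heterozygous for a germline knock-in of the delTTAG mutation of *Opa1*, which is present in every cell type. Mice of both genotypes shared a mixed background with C57BL/6J among its parent strains and were 21 days old per the study's methods. Whole cochleae were measured, so fewer cells of a type and less RNA per cell cannot be told apart.

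Most mitochondrial proteins are made in the cytosol and are imported. The TOM complex is the entry gate of the outer membrane. Its receptors Tomm20, Tomm22 and Tomm70a bind incoming precursors, Tomm40 forms the channel, and the small subunits Tomm5, Tomm6 and Tomm7 govern its assembly and stability. Behind it, the TIM23 complex carries proteins with a presequence into the matrix or the inner membrane, including Opa1, a dynamin-related GTPase of the inner membrane. The small Tim proteins chaperone hydrophobic carriers across the intermembrane space to the TIM22 complex. Loss of the human counterpart of *Timm8a1* causes the X-linked deafness-dystonia syndrome (Mohr-Tranebjaerg syndrome), in which hearing loss is an early sign.

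To show the DNA in front of these genes, stretches of their promoters are printed from RefSeq promoters on GRCm38.p6. Each stretch lies upstream of both the RefSeq start and the GENCODE gene start and reads from 5′ to 3′ on the gene's strand. *Tomm20* and *Timm50* are shown because their groups did not overlap between genotypes, *Timm8a1* as the deafness gene, and *Tomm22*, *Timm23* and *Timm8b* for a match to an ETS core. *Tomm7*, whose groups did not overlap either, had no promoter entry and is not shown. Capitals mark matches to the motif of the nuclear respiratory factor NRF1 or to the ETS core CCGGAAG, the motif of GABPA and related factors, on either strand. In *Tomm22*, matches on the 2 strands overlap.
Tomm20 (chr8:126945922-126946021, minus strand): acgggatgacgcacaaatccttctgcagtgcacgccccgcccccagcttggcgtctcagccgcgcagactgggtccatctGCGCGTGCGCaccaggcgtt
Tomm22 (chr15:79670761-79670860, plus strand): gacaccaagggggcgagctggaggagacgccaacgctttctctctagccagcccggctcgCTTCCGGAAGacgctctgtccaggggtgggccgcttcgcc
Timm23 (chr14:32201899-32201998, minus strand): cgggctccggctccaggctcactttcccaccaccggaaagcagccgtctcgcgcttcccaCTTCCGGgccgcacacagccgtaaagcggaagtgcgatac
Timm8b (chr9:50603801-50603900, plus strand): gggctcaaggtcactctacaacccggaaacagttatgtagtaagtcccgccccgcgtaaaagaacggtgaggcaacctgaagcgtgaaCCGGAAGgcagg
Timm50 (chr7:28312073-28312172, minus strand): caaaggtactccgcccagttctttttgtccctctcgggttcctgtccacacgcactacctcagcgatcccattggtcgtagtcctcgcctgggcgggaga
Timm8a1 (chrX:134541866-134541920, minus strand): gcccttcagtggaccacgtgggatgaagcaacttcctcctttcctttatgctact
The *Timm50* and *Timm8a1* stretches hold neither motif.

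Promoters of 300 bases, from 250 bases before to 50 bases after the start, were found for 8 of the tested Tomm genes and 12 of the tested Timm genes, and the counts are over these. The NRF1 motif was present in 1 of the 8 Tomm promoters (12.5%, *Tomm20*) and in 1 of the 12 Timm promoters (8.33%, *Timm8b*), against 9.96% of the 12113 promoters of genes tested. The ETS core was present in 3 Tomm promoters (37.5%: *Tomm22*, *Tomm34* and *Tomm70a*) and in 4 Timm promoters (33.3%: *Timm10*, *Timm10b*, *Timm23* and *Timm8b*), against 17.1% of all. Of the genes not tested, the *Timm8a2* promoter also held the ETS core, and the *Tomm20l* promoter held neither motif. These are matches of letters, not measured binding sites.

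Counts on named genes ranged from 15978051 to 20828030 per mouse, and the TMM factors, which scale each library, from 0.948 in Het_491 to 1.06 in WT_8. *Opa1*, the check of the genotype labels, was at 118.7, 125.9, 111.7 and 122.4 CPM (counts scaled to the size of the library) in the WT mice (WT_4, WT_5, WT_6 and WT_8, in this order throughout) and at 63.5, 68.4, 60.4 and 70.02 CPM in the *Opa1*+/- mice (Het_2, Het_7, Het_484 and Het_491). The fall was 0.87 on the log2 scale (SE 0.068, n = 4 per group, edgeR adjusted p = 0.00515). Hair cell, spiral ganglion neuron, Schwann cell, stria vascularis, fibrocyte and supporting cell, bone, erythroid, marrow and skeletal muscle markers were all measured, and none of the 9 summed lists passed the threshold (exact two-sided permutation tests, adjusted p between 0.804 and 0.857). The smallest p that 4 mice against 4 allow is 0.0286 before adjustment, so a single list could not have passed it. Summed erythroid markers were at 12547 ± 6235 CPM (SD) in WT and 18481 ± 4623 CPM in *Opa1*+/- mice, with a positive fold change for 7 of 7 genes. Schwann cell markers were at 3702 ± 560 and 4246 ± 587 CPM, with a positive fold change for 5 of 5, and skeletal muscle markers at 848 ± 926 and 548 ± 504 CPM, with a negative one for 9 of 9. In the other lists, fold changes were negative for 7 of 8 hair cell, 5 of 6 stria vascularis and 5 of 7 bone genes. They were also negative for 4 of 8 spiral ganglion neuron, 4 of 6 fibrocyte and supporting cell and 4 of 7 marrow genes. The part of these cell types in the values of the import genes was not tested. All 8 mice had *Xist*, the RNA of the inactive X chromosome, at 0.392 CPM or less and the Y-linked *Ddx3y* between 55.7 and 70.5 CPM, the pattern of male mice in both genotypes.

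To order the import genes by abundance, CPM was divided by the length of the gene's merged exons. Among the tested Tomm genes, the mean levels per kb in WT cochleae (n = 4) were highest for the small subunits *Tomm7* (45.9 ± 1.61, SD), *Tomm6* (41.6 ± 2.58) and *Tomm5* (27.3 ± 3.27). The receptors *Tomm20* (24.8 ± 0.667) and *Tomm22* (21.1 ± 1.23) and the cytosolic co-chaperone *Tomm34* (24.2 ± 1.74) followed. The levels per kb were lower for *Tomm70a* (8.12 ± 0.695), the channel gene *Tomm40* (5.68 ± 0.587), its relative *Tomm40l* (4.76 ± 0.385) and the antisense RNA *Tomm6os* (0.518 ± 0.0895). Over the 8 mice, *Tomm6* lay above *Tomm5*, *Tomm22* above *Tomm70a*, *Tomm70a* above *Tomm40* and *Tomm40l* above *Tomm6os* without overlap, and the other neighbours in this order overlapped.

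Among the tested Timm genes, the small chaperone *Timm8b* was the most abundant, with 83.2 ± 6.81 CPM per kb (SD, n = 4 WT), and lay without overlap above *Timm23*, the channel of the TIM23 complex (25.5 ± 1.84). *Timm13*, the other small Tim of the Timm8-Timm13 complex, was at 19.3 ± 0.849, *Timm10* at 13.03 ± 1.78 and *Timm8a1* at 10.5 ± 0.457 CPM per kb. *Timm44*, *Timm17a*, *Timm22*, *Timm10b* and *Timm50* followed between 8.87 and 6.43 CPM per kb, each overlapping its neighbour. *Timm17b* (5.15 ± 0.366), *Timm9* (2.76 ± 0.199) and *Timm21* (2.72 ± 0.382) were the lowest of the genes tested. *Timm13* against *Timm10*, *Timm50* against *Timm17b* and *Timm17b* against *Timm9* were also apart in all 8 mice. The order depends on the length used. With the principal transcript in place of merged exons, *Tomm6* (62.8 CPM per kb) passed *Tomm7* (45.9), *Tomm40* moved from 5.68 to 15.6, *Timm44* from 8.87 to 18.2 and *Timm9* from 2.76 to 11.9 CPM per kb.

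**Figure D1:**
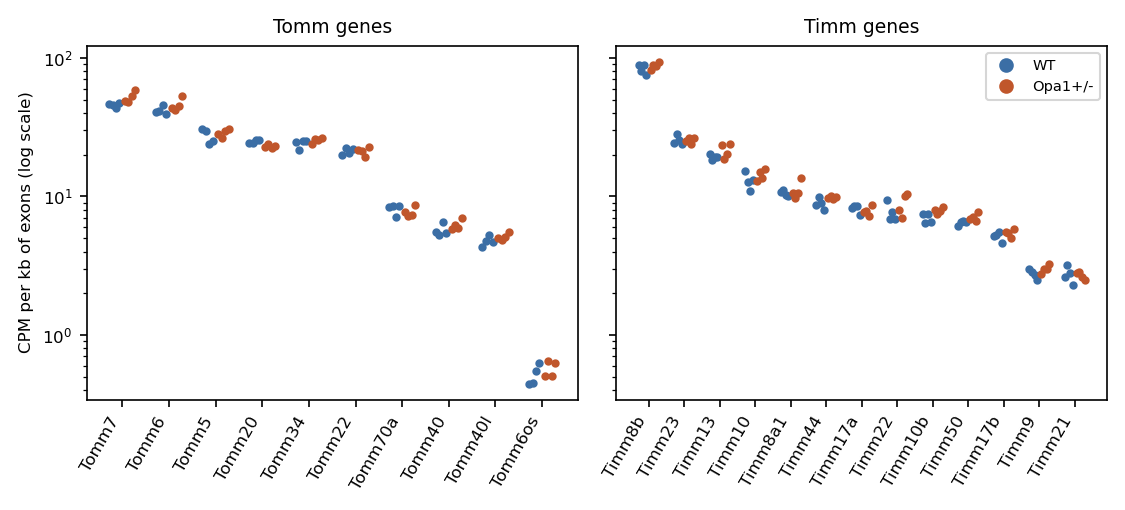
Level of each tested Tomm gene (left) and Timm gene (right) in CPM per kb of merged exons, on a log scale, with 1 point per mouse (blue WT, orange Opa1+/-), ordered by the WT mean. Timm8b, with a WT mean of 83.2, stands above all other tested Timm genes, and Tomm6os, with 0.518, below all other tested Tomm genes, while the genotypes overlap or nearly meet within each gene.

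The comparison of *Opa1*+/- with WT cochleae asks whether the transcripts of the import machinery differ when *Opa1* is reduced. No Tomm, Timm or partner gene passed the adjusted threshold of 0.05 in edgeR's quasi-likelihood test, where 0.0258% of all genes tested did (5 of 19366), or in DESeq2, where 0.119% did (23 of 19355). At an unadjusted p under 0.05, 1 of 10 Tomm genes (*Tomm7*) and 1 of 13 Timm genes (*Timm10b*) were higher in *Opa1*+/- mice, against 3.51% of all genes, and none was lower, against 3.22%. In DESeq2, *Tomm7* was higher and *Tomm20* lower at that level and no Timm gene was, and with libraries scaled by total counts alone no member was higher or lower. In CPM, the groups did not overlap for *Tomm7* and *Timm50*, which were higher in *Opa1*+/- mice (1.98% of all genes), and for *Tomm20*, which was lower (2.33% of all genes).

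The log2 fold changes of the 23 genes lay between -0.11 and 0.20, and the lowest bound of their 95% confidence intervals was -0.30, above the value of *Opa1*. The fold changes were positive for 8 of 10 Tomm genes (80%) and 10 of 13 Timm genes (76.9%), against 50.1% of all genes tested. The median log2 fold change was 0.088 over the Tomm genes and 0.12 over the Timm genes, against 0.00040 over all genes tested.

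**Figure D2:**
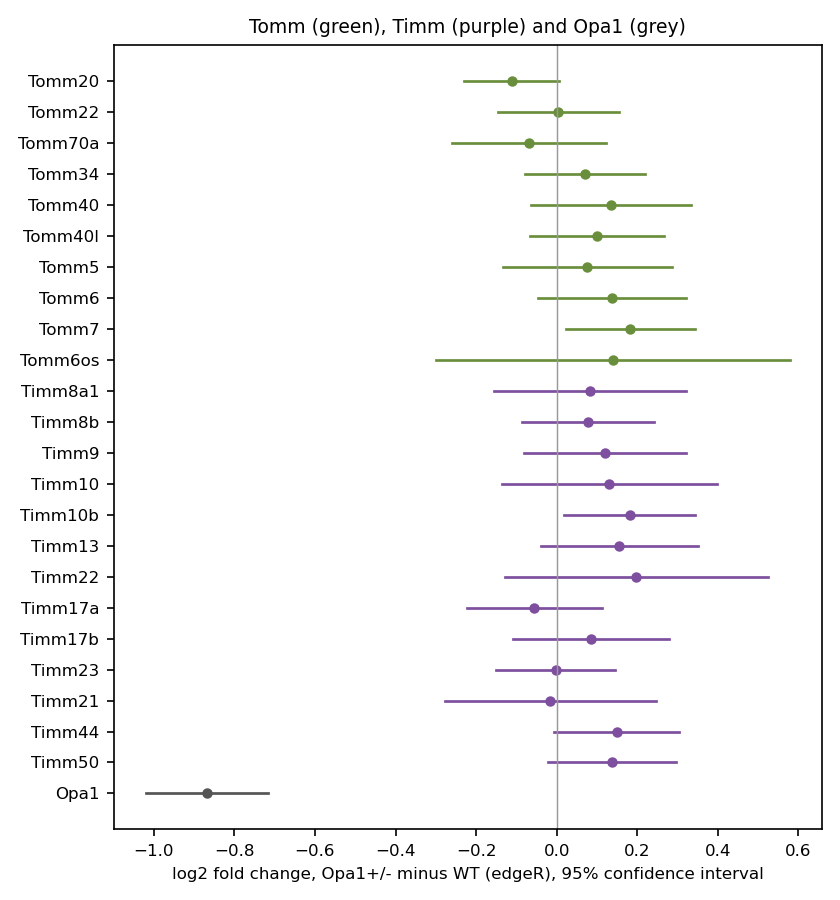
Log2 fold change of each tested Tomm gene (green), Timm gene (purple) and Opa1 (grey), Opa1+/- minus WT, with points for the edgeR estimate and bars for its 95% confidence interval (n = 4 mice per group). The intervals of Tomm7 and Timm10b lie above 0 without adjustment, and Opa1, at -0.87, lies apart from all of them.

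Of the outer membrane receptors, *Tomm20* (chr8:126930667-126945844, minus strand, GENCODE vM21 on GRCm38) was at 119.9, 118.4, 125.0 and 124.3 CPM in WT and at 111.6, 117.6, 109.2 and 112.7 CPM in *Opa1*+/- mice. Every *Opa1*+/- mouse lay below every WT mouse, although the highest *Opa1*+/- mouse (Het_7) was within 1 CPM of the lowest WT mouse. The log2 fold change was -0.11 (SE 0.053, edgeR adjusted p = 0.749), and the DESeq2 adjusted p was 0.828. With the counts of *Gm14494*, whose transcript is 99.5% identical to *Tomm20* over 435 bases, added, the groups still did not overlap (123.1 to 129.6 CPM in WT and 113.1 to 122.0 CPM in *Opa1*+/- mice). *Tomm22*, the central receptor that ties the complex together, was at 34.9 ± 2.03 CPM (SD, n = 4) in WT and 35.0 ± 2.25 CPM in *Opa1*+/- cochleae, with a 95% interval of the log2 fold change from -0.15 to 0.15. *Tomm70a*, the receptor for carrier proteins, was at 79.4 ± 6.79 and 75.7 ± 6.89 CPM, and *Tomm34* at 73.6 ± 5.28 and 77.3 ± 3.31 CPM. For these 3 genes the groups overlapped.

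Of the small subunits, *Tomm7* (chr5:23838944-23844161, minus strand), known for holding PINK1 at the outer membrane, was at 52.1, 51.8, 49.2 and 53.5 CPM in WT and at 54.6, 54.4, 59.3 and 66.1 CPM in *Opa1*+/- mice. All 4 *Opa1*+/- mice lay above the WT mice, and Het_491 was the highest. Its log2 fold change was 0.18, the largest among Tomm genes (SE 0.071, 95% interval 0.023 to 0.34, edgeR adjusted p = 0.722). Without Het_491 it was 0.12. *Tomm6* was at 47.1 ± 2.92 in WT and 51.8 ± 5.54 CPM in *Opa1*+/- mice, and *Tomm5* at 23.7 ± 2.84 and 25.0 ± 1.64 CPM. Both overlapped between genotypes. The predicted gene *Gm21981* shares 859 bases of exon with *Tomm6* on the same strand and held 7150 counts over the 8 mice beside 7060 for *Tomm6*. With both added, the sum was 94.96 ± 5.37 and 104 ± 11.3 CPM in WT and *Opa1*+/- mice. How reads over the shared bases were counted is not given, so this sum may count the same reads under both symbols.

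The channel gene *Tomm40* was at 25.6 ± 2.65 in WT and 28.1 ± 2.32 CPM in *Opa1*+/- mice, and *Tomm40l* at 24.5 ± 1.98 and 26.2 ± 1.45 CPM, with overlap in both. The merged exons of *Tomm40l* share 3304 of 5135 bases with *Nr1i3* on the opposite strand, and the use of strand in counting is not given in the sources used here. The 2944 merged exon bases of *Tomm6os* overlap *Prickle4*, *Gm21981* and *Tomm6* on the opposite strand and *Frs3* on the same strand. Added gene by gene, these overlaps come to 2467 bases, and a base under several of these genes may be counted repeatedly. The share of its length that overlaps other genes is therefore not known. Reads over the overlapping bases cannot be assigned with certainty. Its CPM was 1.31, 1.32, 1.61 and 1.86 in WT and 1.48, 1.90, 1.49 and 1.85 in *Opa1*+/- mice, and WT_8 was among the highest.

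In the intermembrane space, the deafness gene *Timm8a1* (chrX:134537256-134541865, minus strand) was at 15.3, 15.7, 14.5 and 14.4 CPM in WT and at 15.1, 13.9, 15.2 and 19.3 CPM in *Opa1*+/- mice. Het_2, Het_7 and Het_484 lay within or just below the WT range, and Het_491 above it. The log2 fold change was 0.082 (SE 0.11, 95% interval -0.16 to 0.32, edgeR adjusted p = 0.905), and it turned to -0.028 without Het_491. The predicted gene *Gm9797* is identical to the *Timm8a1* transcript over 612 bases and held 1903 counts over the 8 mice beside 2206 for *Timm8a1*. With both added together, the level was 27.9 ± 1.301 in WT and 29.6 ± 4.54 CPM in *Opa1*+/- mice, again with overlap.

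Of the other small Tims, *Timm8b*, the most abundant per kb, was at 45.7, 41.9, 46.2 and 38.7 CPM in WT and at 42.1, 46.0, 45.2 and 48.7 CPM in *Opa1*+/- mice. WT_8 was the lowest and Het_491 the highest, and the groups overlapped. *Timm13* was at 26.4 ± 1.16 and 29.5 ± 3.46 CPM, *Timm9* at 11.8 ± 0.851 and 12.8 ± 0.827 CPM, and *Timm10* at 10.6 ± 1.45 and 11.6 ± 1.04 CPM in the 2 genotypes (SD, n = 4). Their edgeR adjusted p lay between 0.765 and 0.850.

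*Timm10b*, the small Tim attached to the TIM22 complex, was at 26.8, 23.1, 26.6 and 23.5 CPM in WT and at 28.6, 26.6, 28.3 and 30.0 CPM in *Opa1*+/- mice. Het_7 lay below the top 2 WT mice, and the other 3 above all of them. The log2 fold change was 0.18 (SE 0.073, 95% interval 0.018 to 0.34, edgeR adjusted p = 0.722), and the gene shares 277 bases of exon with *Arfip2* on the opposite strand. *Timm22*, the channel of the carrier pathway, had the largest fold change of the Timm genes, 0.20, and the widest spread. It was at 30.0, 21.9, 24.7 and 22.0 CPM in WT and at 25.5, 22.4, 32.3 and 32.9 CPM in *Opa1*+/- mice (SE of the log2 fold change 0.15, edgeR adjusted p = 0.812). The high *Opa1*+/- values came from Het_484 and Het_491, and without these 2 mice the log2 fold change was -0.041.

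In the TIM23 complex, *Timm50*, the receptor that takes presequences from the TOM complex, was at 16.4, 17.5, 17.7 and 17.4 CPM in WT and at 18.3, 19.1, 17.9 and 20.6 CPM in *Opa1*+/- mice. All *Opa1*+/- mice lay above all WT mice, Het_484 by about 0.2 CPM. The log2 fold change was 0.14 (SE 0.071, 95% interval -0.021 to 0.30, edgeR adjusted p = 0.758). *Timm44*, the inner membrane anchor of the import motor, was at 32.5 ± 2.92 and 36.0 ± 0.831 CPM (edgeR adjusted p = 0.749), and WT_5, at 36.3 CPM, lay within the *Opa1*+/- range.

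*Timm23*, the channel itself, was at 45.5 ± 3.29 in WT and 45.4 ± 2.18 CPM in *Opa1*+/- mice, with a 95% interval of the log2 fold change from -0.15 to 0.14. Transcripts of *Gm10171*, *Gm10233*, *Gm10273* and *Gm16209* matched the *Timm23* transcript at 98.2% to 100% identity over 627 bases or more and held 1746, 3097, 4539 and 463 counts beside 6545 for *Timm23*. With these 4 added, the level was 114 ± 7.04 in WT and 113 ± 6.01 CPM in *Opa1*+/- mice. *Timm17a* (64.5 ± 4.64 and 62.1 ± 4.69 CPM) and the X-linked *Timm17b* (13.2 ± 0.937 and 14.0 ± 0.849 CPM), alternative channel partners, overlapped between genotypes. *Timm21*, which links the TIM23 complex to the TOM complex, was at 9.82, 11.9, 10.3 and 8.47 CPM in WT and at 10.5, 10.6, 9.72 and 9.32 CPM in *Opa1*+/- mice. All *Opa1*+/- values lay within the WT range.

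**Figure D3:**
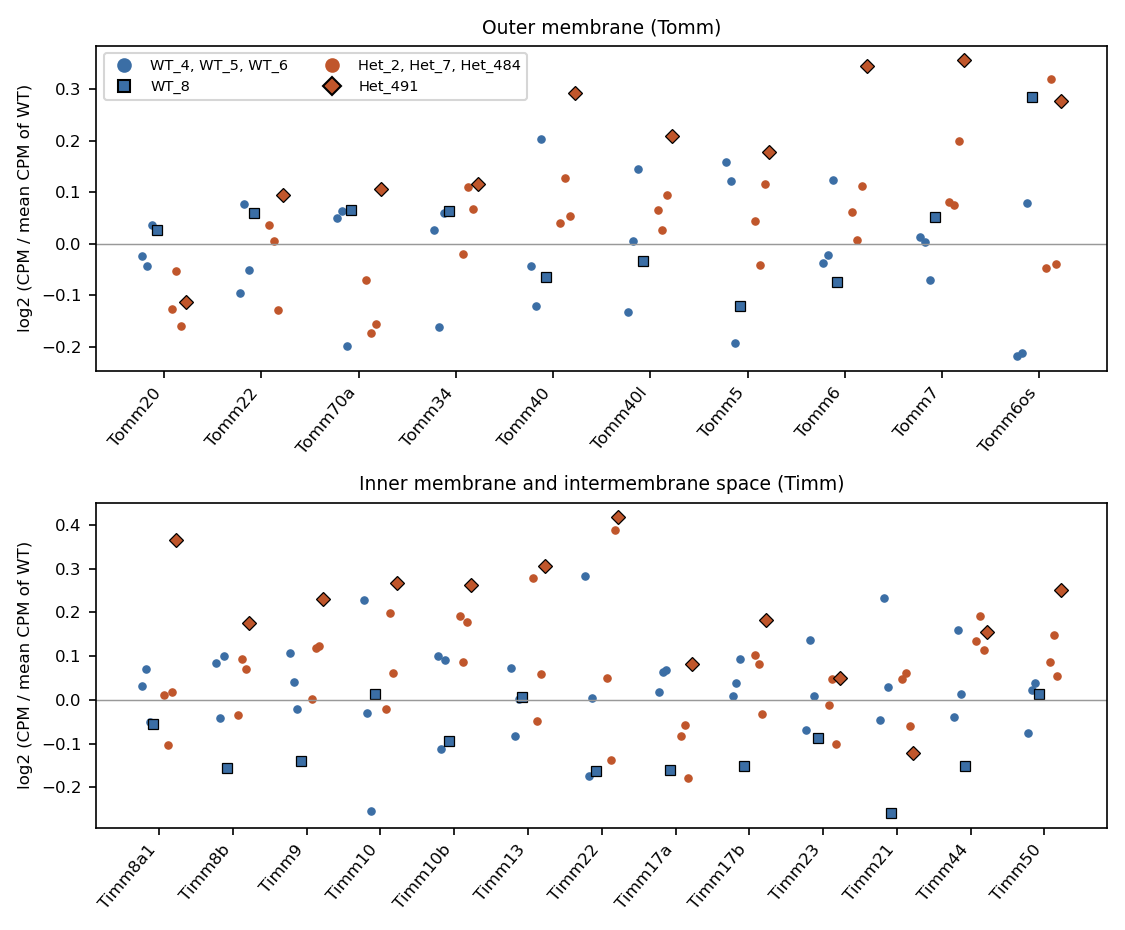
Value of each tested Tomm gene (top) and Timm gene (bottom) in each mouse, as the log2 of its CPM over the mean CPM of the 4 WT mice (blue WT, orange Opa1+/-). The diamond of Het_491 (an Opa1+/- mouse) is the highest point in 8 of 10 Tomm and 10 of 13 Timm genes, and the square of WT_8 the lowest in 5 of 13 Timm genes.

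Across genes, Het_491 had the highest CPM of the 8 mice for 8 of 10 Tomm genes (80%) and 10 of 13 Timm genes (76.9%), against 17.2% of all genes tested. WT_8 had the lowest CPM for 5 of 13 Timm genes (38.5%), against 10.97% of all genes. Summed over the Tomm genes, CPM was 482.6, 477.3, 484.1 and 490.98 in WT and 477.3, 482.0, 479.7 and 529.4 in *Opa1*+/- mice. Apart from Het_491, the *Opa1*+/- mice lay between 477.3 and 482.0 CPM, below at least 3 of the 4 WT mice. Summed over the Timm genes, CPM was 350.5, 347.0, 347.4 and 314.1 in WT and 350.3, 349.3, 347.7 and 386.6 in *Opa1*+/- mice. The 6 mice other than WT_8 and Het_491 thus lay between 347.0 and 350.5 CPM.

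**Figure D4:**
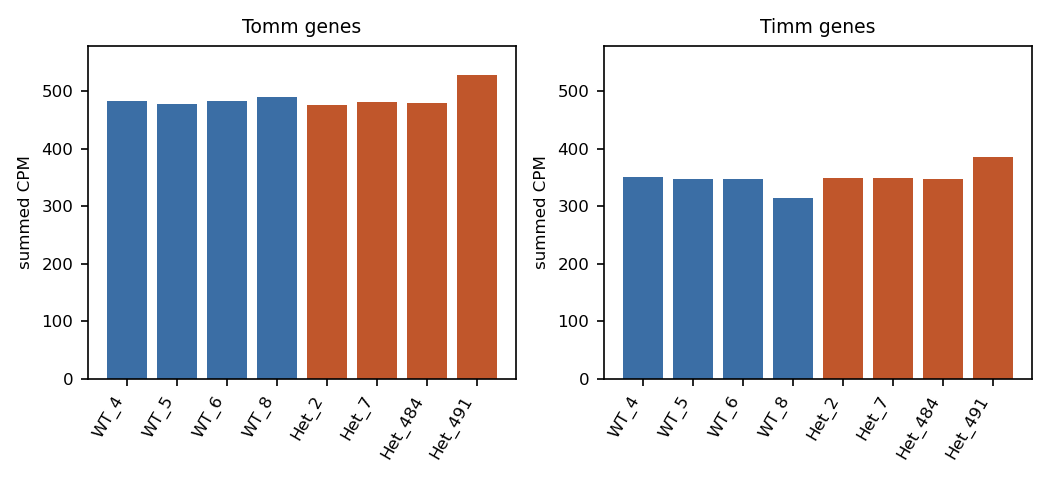
CPM summed over the Tomm genes (left) and the Timm genes (right) in each mouse, with 1 bar per mouse (blue WT, orange Opa1+/-). Het_491 is the highest in both panels (529.4 and 386.6 CPM), and WT_8 the lowest for Timm genes (314.1 CPM).

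WT_8 and Het_491 were picked after these sums were seen. Leaving out the lowest WT and the highest *Opa1*+/- mouse of the Timm sums lowers the Timm difference by construction. Het_491 was also the highest in the Tomm sums. No conclusion is therefore drawn from leaving both out. With both left out, the median log2 fold change was 0.041 over the Tomm genes and 0.039 over the Timm genes. At an unadjusted p under 0.05, no member was higher and *Timm17a* was lower (log2 fold change -0.15). The share of all genes at that level was not computed for this fit. The lowest adjusted p of *Timm17a* under any alternative was 0.836 (limma voom). Het_491 also had the highest summed erythroid markers (25032 CPM against 7739 to 21425 CPM in the other 7 mice), the lowest skeletal muscle markers (16.5 CPM against 226 to 2224 CPM) and the highest share of mitochondrially encoded counts (16.1% against 11.7% to 16.01%). WT_8 had the lowest erythroid sum (7739 CPM) and the lowest mitochondrially encoded share (11.7%). The part of these differences in the import genes was not tested.

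Fold changes moved with transcript length over the 15075 tested genes with a principal transcript. The median log2 fold change was 0.081 for the 943 genes with a principal transcript under 1000 bases, 0.040 for the 3114 genes of 1000 to under 2000 bases, -0.011 for the 6188 genes of 2000 to under 4000 bases and -0.062 for the 4830 genes of 4000 bases or more. The share of genes with a positive fold change went from 70.2% in the shortest class to 28.7% in the longest. Without Het_491 the medians of the shortest and longest class were 0.053 and -0.055.

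Among the import genes, the median log2 fold change by class, from the shortest to the longest, was 0.12, 0.14, 0.086 and -0.062. All 5 members under 1000 bases (*Tomm5*, *Tomm6*, *Timm8b*, *Timm9* and *Timm10*) had a positive fold change, as did 7 of 8 members of 1000 to under 2000 bases, 4 of 5 of 2000 to under 4000 bases and 1 of 4 of 4000 bases or more. The long members were *Tomm20*, *Tomm70a*, *Timm17a* and *Tomm40l*, and all but *Tomm40l* had a negative fold change. Relative to the median of its length class, *Tomm20* was at -0.050 and *Tomm7* at 0.14 on the log2 scale. In total 15 of 22 members with a principal transcript lay above the median of their length class, by a median of 0.053 over the 22. The part of transcript length in the genotype difference of single genes was not tested.

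**Figure D5:**
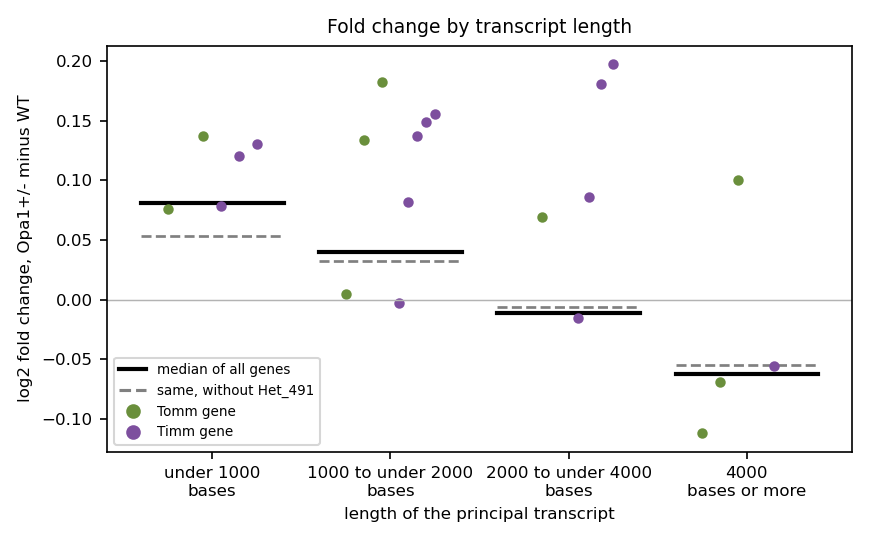
Log2 fold change, Opa1+/- minus WT, by length class of the principal transcript, with points for Tomm (green) and Timm (purple) genes, black lines for the median of all tested genes with a principal transcript in the class and dashed grey lines for that median without Het_491. The black lines go down from 0.081 to -0.062 with length.

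The partners of the import complexes, a list of 24 genes that were all tested, were examined in the same fit. Fold changes were positive for 15 of 24 (62.5%, against 50.1% of all genes tested), with a median of 0.057. At an unadjusted p under 0.05, 2 were higher and 1 was lower in *Opa1*+/- mice, against 3.51% and 3.22% of all genes. *Romo1*, a small inner membrane protein of the TIM23 complex, was at 33.7, 29.2, 26.6 and 27.8 CPM in WT and at 34.6, 33.9, 34.8 and 37.2 CPM in *Opa1*+/- mice. The groups did not overlap, although Het_7 lay just above WT_4, and the log2 fold change was 0.26 (SE 0.078, 95% interval 0.083 to 0.43, edgeR adjusted p = 0.722).

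*Mtx3*, a metaxin of the outer membrane sorting machinery, had a log2 fold change of -0.17 (edgeR adjusted p = 0.732), with 44.99 ± 2.91 in WT and 40.0 ± 3.10 CPM in *Opa1*+/- mice. *Dnlz*, a chaperone of the import motor's Hsp70, had 0.15 (21.5 ± 1.001 and 23.9 ± 1.41 CPM, edgeR adjusted p = 0.736). *Dnajc15*, a J protein of the motor, had 0.17 (28.7 ± 3.66 and 32.2 ± 2.50 CPM, edgeR adjusted p = 0.770), and *Samm50*, the core of the sorting machinery, 0.096 (48.6 ± 3.71 and 51.9 ± 2.00 CPM, edgeR adjusted p = 0.794). By role, positive fold changes were found in 6 of 7 genes of the import motor, 5 of 6 of outer membrane sorting and insertion, 1 of 2 of the disulfide relay, 1 of 2 of the TIM23 and TIM22 accessory genes, the insertase gene and 1 of 6 of presequence processing, against 50.1% of all genes tested. In the last group, the peptidase subunits *Pmpca* (-0.063) and *Pmpcb* (-0.043) were slightly below 0. None of these groups held a gene past the adjusted threshold.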

How the data were processed

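RNA was extracted from cochleae with TRI Reagent or, per the labels, an RNeasy kit, without saying which mouse received which. CORALL libraries were sequenced as 2 × 80 nucleotides on a NextSeq500. Per the submitters' processing notes, FastQC and STAR were used with GRCm38 (mm10), and molecular identifiers served against amplification bias. The counting program is not given in the sources used here. The authors deposited raw counts per gene symbol, 1 table per mouse. Groups came from the sample titles, and each mouse was 1 replicate.

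The 15 entries with a number in place of a symbol (0.112% to 0.124% of counts) were left out. Genes with a mean above 10 after DESeq2 size factors were tested with edgeR 4.0.16 (R 4.3.3, quasi-likelihood, TMM, library sizes over all named entries) and Benjamini-Hochberg adjustment over 19366 genes. SE is the absolute log2 fold change over the square root of F. CPM uses TMM library sizes. Intervals are 95%. Positions and lengths came from GENCODE vM21, similar transcripts from blastn 2.17.0 (at least 98% identity over 300 bases, limits set after seeing the alignments). The alternatives were DESeq2 1.42.0, limma voom 3.58.1, sva 3.50.0, other scalings and filters, an Xist covariate for the X-linked genes and each mouse left out. The pipeline was tested on simulated data. Marker sums were compared by exact permutation tests. Members, partner list and markers were chosen with earlier results of these data known. Named with values in every mouse are *Timm8a1*, members with an unadjusted p under 0.05 or groups that do not overlap, and those with the highest and lowest level per kb and the largest fold change. Of the partners, the 5 with the lowest p are named, and *Pmpca* and *Pmpcb* were added after their values were seen. The protein motif search planned for the small Tims was not done.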

Additional observations from a re-analysis of the deposited data

Results flagged for a closer look

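In 50 groups of 4 mice (the CPM of each tested Tomm and Timm gene and the 2 sums, per genotype), the gap of the highest or lowest mouse to its neighbour was compared with the whole range. In 4 of them it passed Dixon's critical value, where chance marks about 1 group in 20. For *Tomm70a* in WT, WT_6 was at 69.2 CPM and the other 3 between 82.2 and 83.1 CPM. For the summed Tomm genes in *Opa1*+/-, Het_491 was at 529.4 CPM and the others between 477.3 and 482.0 CPM. For the summed Timm genes, WT_8 was at 314.1 CPM with the others between 347.0 and 350.5 CPM, and Het_491 was at 386.6 CPM with the others between 347.7 and 350.3 CPM.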

How the results depend on the processing

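No Tomm, Timm or partner gene was called under any of the 19 alternatives, single mice left out included. The number of genes called among all genes, 5 in the analysis as reported, was 23 with DESeq2, 10 with limma voom, 12 with no filter but a count above 0, 2 with the first surrogate variable, 11 at an adjusted p under 0.1, 0 without both *Opa1*+/- mice with 3-digit numbers, 0 without WT_8 and Het_491 (added after seeing the data), and between 0 and 9 with each mouse left out. The *Opa1* log2 fold change was -0.90 to -0.83 with each mouse left out, but missed the adjusted threshold without Het_2 (-0.85, adjusted p = 0.0704), without both 3-digit mice (-0.86, adjusted p = 0.260) and without WT_8 and Het_491 (-0.89, adjusted p = 0.164), each with fewer samples. The partner median fell to 0.0098 without WT_8 and Het_491. With each mouse left out, the medians lay between 0.054 and 0.12 for Tomm and between 0.073 and 0.13 for Timm genes. The sign turned for *Tomm22* with DESeq2 size factors (-0.0017), total counts (-0.025), DESeq2 (-0.0025), voom (-0.036), without WT_8 and Het_491 (-0.0058) and over single mice left out (-0.030 to 0.049). It turned for *Timm21* with voom (0.026), without the 3-digit mice (0.054) and over single mice (-0.097 to 0.073), for *Timm23* without the 3-digit mice (0.018) and over single mice (-0.035 to 0.046), and for *Timm22* without the 3-digit mice (-0.041). *Timm8a1* turned without the 3-digit mice (-0.046), without WT_8 and Het_491 (-0.043) and over single mice (-0.028 to 0.14), and *Timm8b* without WT_8 and Het_491 (-0.0045). Beyond fewer samples, the cause was not tested. With each mouse left out, the count of Tomm genes higher at an unadjusted p under 0.05 went from 1 to 0 without WT_5, Het_484 or Het_491, and that of Timm genes from 1 to 0 without WT_8, Het_2, Het_484 or Het_491. Without Het_7, 2 Timm genes were higher and 1 Tomm gene lower. No member was higher with total counts, without the 3-digit mice or without WT_8 and Het_491, where 1 Timm gene was lower. DESeq2 had no Timm gene higher, voom no Tomm gene higher, and both 1 Tomm gene lower. The share of all genes at that level was computed only for the analysis as reported (3.51% higher and 3.22% lower). These counts are therefore not read as a result. The Xist covariate turned neither *Timm8a1* nor *Timm17b*. With *Xist* at 0.392 CPM or less and *Ddx3y* present in every mouse, all had a male pattern. The covariate thus had no difference in sex to adjust for, and no conclusion is drawn from it. The study describes the WT mice as control littermates. No paired analysis was possible because the litter of each mouse is not given in the sources used here. With 4 mice per group, the standard errors of the members' log2 fold changes lay between 0.053 and 0.20.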
